A study of Homo sapiens with 6 samples.

Results

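Collagens are the main structural proteins of the extracellular matrix. Each collagen molecule is built from alpha chains that wind around one another into a rope-like helix, and every chain is the product of its own gene. Fibrillar collagens form the cable-like fibrils of connective tissue, type IV collagens form the sheet under epithelia and vessels, and the remaining classes decorate fibrils, anchor epithelia or span the cell membrane. In the lung, fibroblasts make most fibrillar collagen, while epithelial cells contribute to their own basement membrane.

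The transcripts described here are those of the collagen chains in A549, a human lung adenocarcinoma cell line, in 3 STAU1 knockdown libraries and 3 control libraries. STAU1 encodes an RNA-binding protein that recognises double-stranded RNA and takes part in mRNA transport and decay. Members were all protein-coding rows of the count table whose symbol is COL, a number, A and a number, which gave 36 genes of 30493 listed. Of the human chains in a list of 44 sorted by structural class, COL1A2, COL2A1, COL6A5, COL8A1, COL9A1, COL19A1, COL23A1 and COL25A1 had no such row. The labels give the knockdown samples the genotype STAU1 knockdown under titles with the prefix si, and the control samples a control plasmid under titles with the prefix NC. No time after transfection or reagent sequence is given in the sources used here, and it is not stated whether each library is its own culture. The p-values therefore reflect library-to-library spread alone, and this may be technical.

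Libraries held 30354219 to 35431441 counts. STAU1 had 501, 500 and 528 counts in knockdown libraries and 3738, 3810 and 3730 in controls (log2 fold change -2.97, SE 0.04). The epithelial keratin gene KRT8 averaged 3328 ± 50.9 CPM (TMM-scaled counts relative to library size) in knockdown libraries and 4371 ± 60.9 in controls (SD, n = 3 each), so an epithelial identity is visible in both groups. CDKN2B, a gene known to be deleted in A549, had 0 counts over the knockdown group and 2 over the control group.

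Most of the well-expressed collagen chains were higher after STAU1 knockdown. Of the 36 members, 27 had enough counts to be tested, and of these 16 were higher, 1 was lower and 10 were not called at an adjusted p under 0.05 in edgeR's quasi-likelihood test over all 17089 tested genes. Among all tested genes 22.2% were called higher and 22.0% lower. The members' median log2 fold change was 0.48 (quartiles 0.20 and 0.62), and that of all tested genes was -0.000355 (quartiles -0.17 and 0.18). Of the tested members, 24 had a positive and 3 a negative fold change. All 3 knockdown libraries lay above all 3 controls for 18 of the 27 tested members, against 25.8% of all tested genes. Rises were mostly moderate: 6 called members were at least 1.5-fold higher, of which COL1A1 alone exceeded 2-fold. Summed over the 36 chains, collagen transcripts reached 890, 903 and 904 CPM in knockdown libraries, against 678, 683 and 688 CPM in controls. They made up 0.0922% ± 0.0006 of all counts in knockdown libraries and 0.0665% ± 0.0003 in controls (SD, n = 3 each). A few genes dominate that sum: COL5A2, COL18A1, COL7A1 and COL4A5 held 57.8% ± 0.4 of collagen counts in knockdown libraries and 59.7% ± 0.3 in controls (SD, n = 3 each). In bulk RNA, more cells expressing a chain and more transcript per cell cannot be told apart.

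**Figure D1:**
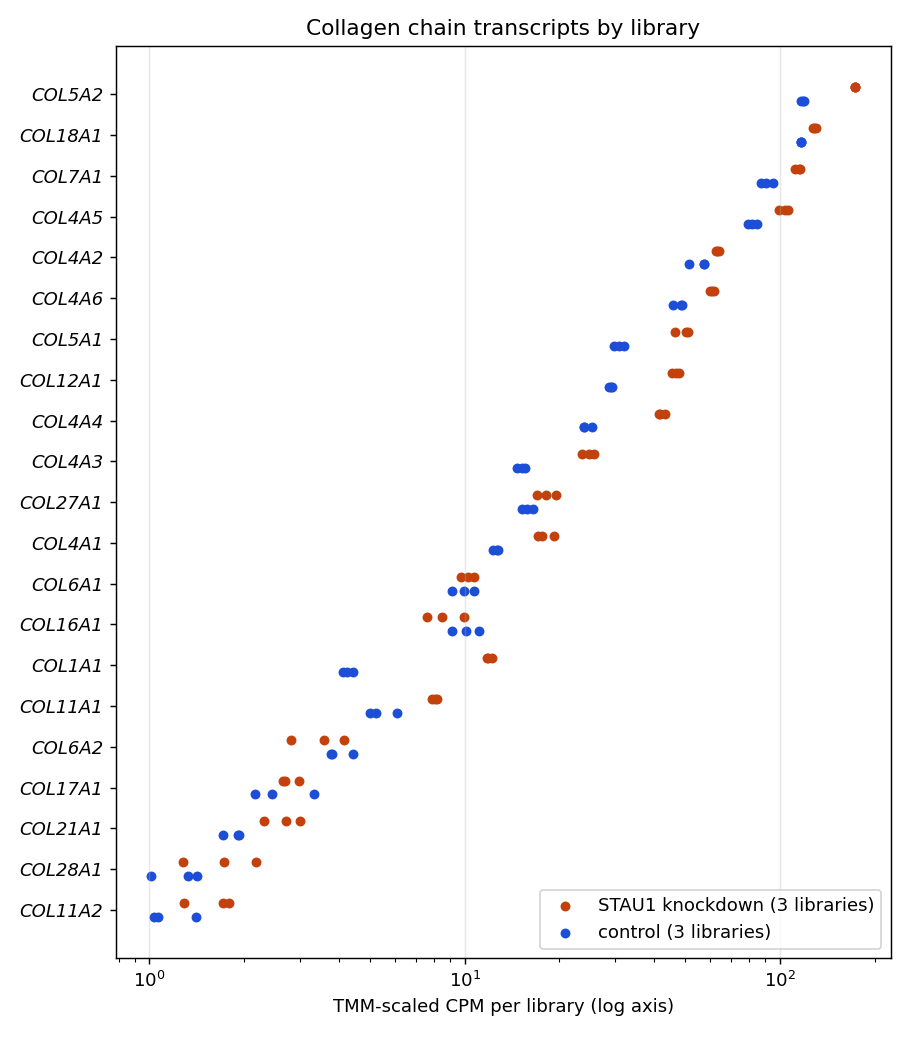
TMM-scaled CPM per library (log axis) of the 21 tested collagen chains with a mean of at least 1 CPM, with 3 knockdown and 3 control points per gene. COL1A1 has the widest gap, with 11.8 to 12.2 CPM in knockdown libraries and 4.12 to 4.43 in controls, while the points of COL6A1, COL16A1, COL6A2, COL17A1, COL28A1 and COL11A2 overlap.

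The type IV genes are arranged in head-to-head pairs, so the stretch between the starts of a pair is shown first, because all 6 of these genes rose. RefSeq (GRCh38.p14) places the COL4A1 and COL4A2 starts 127 bases apart on chromosome 13, the COL4A4 and COL4A3 starts 419 bases apart on chromosome 2, and the COL4A6 and COL4A5 starts 380 bases apart on chromosome X. The stretches below are written on the plus strand, 5′ to 3′. The first is 30 bases cut around the letters CCAAT between the starts of the first pair (chr13:110307167-110307196), so its CCAAT match was fixed by this choice. The others are 111 bases outside annotated exons between the starts of the second pair (chr2:227164454-227164564), and the 250 bases before the COL4A5 start (chrX:108439588-108439837). Capitals mark matches on either strand to the CCAAT box, whose letters are CCAAT. They also mark matches to the GC box, searched as the letters GGGCGG.
COL4A1 and COL4A2: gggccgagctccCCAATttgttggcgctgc
COL4A4 and COL4A3: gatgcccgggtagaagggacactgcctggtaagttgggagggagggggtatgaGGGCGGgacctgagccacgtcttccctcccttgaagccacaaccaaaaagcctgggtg
COL4A6 and COL4A5: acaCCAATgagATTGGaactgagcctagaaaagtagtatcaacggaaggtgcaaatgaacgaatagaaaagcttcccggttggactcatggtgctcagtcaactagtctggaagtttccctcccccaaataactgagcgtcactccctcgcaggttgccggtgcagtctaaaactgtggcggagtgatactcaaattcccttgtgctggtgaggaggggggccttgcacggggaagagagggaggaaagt
The COL4A6 and COL4A5 stretch holds 2 CCAAT matches, 1 on each strand, and is 51.2% G or C, against 61.3% in the COL4A4 and COL4A3 stretch, which holds 1 GC box match. None of the 3 holds TATAAA on either strand. Promoter windows, from 250 bases before to 50 after a RefSeq start, were matched for 28 of the 36 members. In these windows CCAAT was found for 10 of 28 members and 39.7% of 27305 genes, GGGCGG for 20 of 28 members and 48.3% of genes, and TATAAA for 7 of 28 members and 14.0% of genes, counting both strands. None of the 3 motifs contains another, and a match describes letters only.

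All 6 type IV chains, the network-forming collagens of basement membranes, rose. COL4A1 and COL4A2 encode the chains found in nearly every basement membrane. COL4A1 (chr13:110148963-110307233, GRCh38, minus strand) had 19.2, 17.7 and 17.1 CPM in knockdown replicates 1 to 3, against 12.3, 12.7 and 12.8 CPM in control replicates 1 to 3. Its groups did not overlap, and the log2 fold change was 0.51 (SE 0.06). COL4A2 (chr13:110305812-110513209, plus strand) had 63.5, 62.9 and 64.3 CPM in knockdown libraries, against 57.6, 51.4 and 57.5 CPM in controls. Its rise was smaller, at 0.20 (SE 0.04) on the log2 scale, and 0.10 with an offset for gene length or 0.30 on the log2(FPKM + 0.1) scale, with groups that did not overlap.

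COL4A3, COL4A4 and COL4A5 encode the chains of the specialised basement membranes of kidney glomeruli and lung alveoli, and inherited defects in them cause Alport syndrome. COL4A3 (chr2:227164565-227314792, plus strand) had 24.8, 25.8 and 23.6 CPM in knockdown libraries, against 15.2, 15.5 and 14.7 CPM in controls. Its neighbour COL4A4 (chr2:227002711-227164453, minus strand) had 41.5, 41.8 and 43.1 CPM in knockdown libraries, against 24.0, 25.3 and 23.9 CPM in controls. The lncRNA AC097662.1, which shares 120 exon bases with COL4A3 on the opposite strand, had 27 to 39 counts in knockdown libraries and 21 to 28 in controls. Both type IV genes were separated between groups in every library, with log2 fold changes of 0.71 (SE 0.06) for COL4A3 and 0.79 (SE 0.04) for COL4A4, the 2 largest of the type IV genes. COL4A5 (chrX:108439844-108697545, plus strand) had 99.2, 107 and 104 CPM in knockdown libraries, against 79.4, 84.6 and 81.7 CPM in controls. COL4A6 (chrX:108155607-108439497, minus strand), whose product pairs with that of COL4A5 in other basement membranes, had 59.99, 61.1 and 62.0 CPM in knockdown libraries, against 48.7, 48.9 and 46.0 CPM in controls. This pair moved by similar amounts, 0.34 (SE 0.03) for COL4A5 and 0.35 (SE 0.04) for COL4A6 on the log2 scale. Each of the 6 type IV calls held under all 16 alternatives tried.

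Chains of one molecule are needed in set proportions, so their levels were compared per length as ratios of the deposited FPKM (fragments scaled to gene length and library size, rounded to 2 decimals). The planned ratio of COL1A1 to COL1A2 could not be formed, as COL1A2 had no row. That of COL6A3 to COL6A1 was not formed, as COL6A3 was above 0 FPKM only in knockdown replicate 1. COL4A1 over COL4A2 was 0.400, 0.368 and 0.349 in knockdown libraries, against 0.283, 0.324 and 0.294 in controls. All 3 knockdown ratios were higher (difference of mean log2 ratios 0.31), and the exact 2-sided permutation test gave p = 0.1, the smallest that 3 against 3 libraries allow. The pairs COL4A3 over COL4A4 and COL4A6 over COL4A5, added after their values were seen, averaged 0.566 ± 0.036 in knockdown libraries and 0.597 ± 0.010 in controls, and 0.755 ± 0.022 in knockdown libraries and 0.747 ± 0.033 in controls (SD, n = 3 each). For these pairs the groups overlapped (exact permutation p = 0.3 and 0.8, 2-sided), and the differences of mean log2 ratios were -0.08 and 0.02. For COL4A3 over COL4A4 it was -0.03 without knockdown replicate 3 and -0.12 without knockdown replicate 2, and for COL4A6 over COL4A5 the sign turned without knockdown replicate 1 or control replicate 3.

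**Figure D2:**
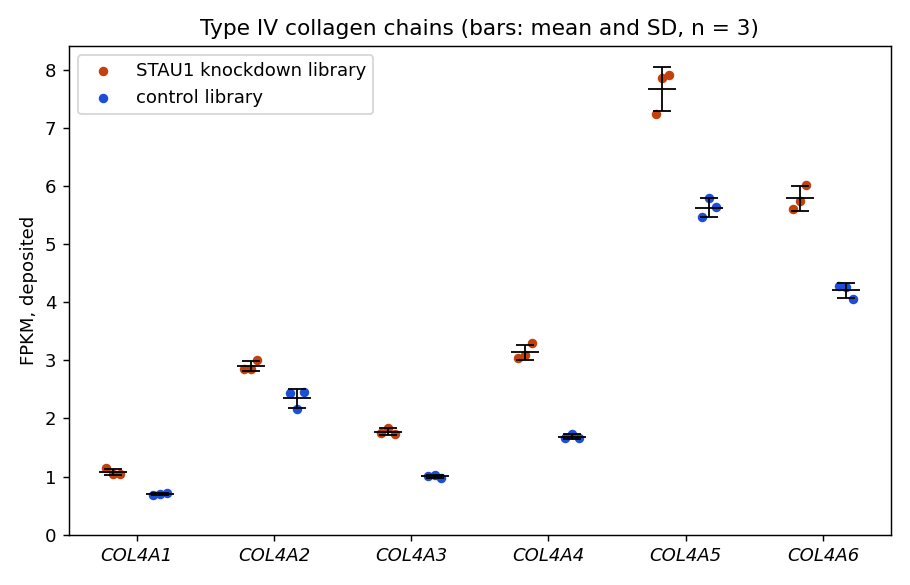
Deposited FPKM of the 6 type IV collagen chains in each library, with the mean and SD of 3 knockdown (left) and 3 control (right) libraries per gene. Every knockdown point lies above the control points of the same gene, and COL4A5 has the highest level in both groups, at 7.67 FPKM in knockdown libraries and 5.63 in controls.

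Fibrillar chains also rose, with 5 of 9 tested members higher, 4 not called and none lower. Among all tested genes 22.2% were higher and 22.0% lower. COL1A1 (chr17:50183289-50201632, minus strand) encodes the main chain of type I collagen, the principal fibril of bone, skin and scar tissue. It had 369, 380 and 442 counts in knockdown libraries, against 131, 126 and 141 in controls, which is 11.8, 11.9 and 12.2 CPM in knockdown libraries, against 4.22, 4.12 and 4.43 CPM in controls. The groups were far apart, and its log2 fold change of 1.49 (SE 0.09) was the largest of any tested chain. COL1A1 was a minor transcript even so, at 1.17 ± 0.04 FPKM in knockdown libraries and 0.383 ± 0.015 FPKM in controls (SD, n = 3 each), and on the log2(FPKM + 1) scale its difference was 0.65.

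Type V collagen joins type I fibrils and limits their diameter. COL5A2 (chr2:189031896-189225312, minus strand), the most abundant collagen transcript in both groups, had 5424, 5515 and 6278 counts in knockdown libraries, against 3696, 3585 and 3788 in controls. Scaled to library size this was 174, 173 and 174 CPM in knockdown libraries, against 119, 117 and 119 CPM in controls, with replicates nearly superimposed and a log2 fold change of 0.55 (SE 0.02). COL5A1 (chr9:134641774-134844843, plus strand) had 46.5, 51.1 and 50.3 CPM in knockdown libraries, against 31.9, 29.7 and 30.8 CPM in controls, a rise of 0.68 (SE 0.04) on the log2 scale. The FPKM ratio of COL5A1 to COL5A2 was 0.187 ± 0.010 in knockdown libraries and 0.171 ± 0.005 in controls (SD, n = 3 each), and the groups overlapped (exact permutation p = 0.2, 2-sided). COL5A3, a further type V chain, was sparse, with 21 to 25 counts in knockdown libraries and 14 to 16 in controls. Its groups were apart, but it was not called (log2 fold change 0.52, SE 0.31).

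COL11A1, a minor fibrillar chain best known from cartilage, had 8.16, 7.86 and 8.08 CPM in knockdown libraries, against 5.22, 6.11 and 5.02 CPM in controls, and rose by 0.56 (SE 0.10) on the log2 scale. COL11A2, its partner chain, had 1.79, 1.28 and 1.72 CPM in knockdown libraries, against 1.06, 1.41 and 1.04 CPM in controls, and these groups overlapped. It was not called (log2 fold change 0.45, SE 0.21), but passed in edgeR without knockdown replicate 2 (adjusted p = 0.0383), without control replicate 2 (0.0478) and with total-count scaling (0.0379). COL27A1, a fibrillar chain of developing cartilage, had 16.9, 18.2 and 19.5 CPM in knockdown libraries, against 15.2, 16.5 and 15.8 CPM in controls. Its gap between groups was narrow (log2 fold change 0.21, SE 0.06). Its adjusted p from edgeR was 0.00546, and the call was lost without knockdown replicate 3 (adjusted p = 0.0751) and with a length offset (adjusted p = 0.0931). COL3A1, the chain that accompanies type I collagen in elastic tissues, was barely detected, with 2, 15 and 15 counts in knockdown libraries and 3, 12 and 3 in controls. COL24A1 had 10 to 16 counts in knockdown libraries and 4 to 15 in controls, and both genes had overlapping groups and no call.

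COL7A1 (chr3:48564073-48595267, minus strand) encodes the anchoring fibril that fastens epithelium to the tissue below. It had 116, 115 and 112 CPM in knockdown libraries, against 87.4, 90.4 and 95.5 CPM in controls, without overlap and with a log2 fold change of 0.33 (SE 0.03). COL18A1 (chr21:45405137-45513720, plus strand), a basement membrane multiplexin from which the antiangiogenic fragment endostatin is cleaved, had 127, 130 and 129 CPM in knockdown libraries, against 117, 117 and 117 CPM in controls. The difference was small but larger than the spread between libraries (log2 fold change 0.14, SE 0.03). It was 0.22 with total-count scaling and 0.10 with an offset for gene length. COL18A1 overlaps exons of SLC19A1 on the opposite strand over 1401 bases, and whether counting used strand is not given. SLC19A1 had 731 to 768 counts in knockdown libraries and 823 to 864 in controls. COL15A1, the other multiplexin, was not tested, with 5 to 13 counts in knockdown libraries and 5 to 8 in controls.

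The FACIT collagens, which sit on the surface of fibrils, were divided, with 3 of 5 tested members higher, 1 lower and 1 not called. The shares among all tested genes were 22.2% higher and 22.0% lower. COL12A1 (chr6:75084326-75206051, minus strand) had 47.0, 45.5 and 47.9 CPM in knockdown libraries, against 29.2, 28.8 and 29.4 CPM in controls, and rose by 0.69 (SE 0.04) on the log2 scale. COL21A1 had 94, 74 and 98 counts in knockdown libraries, against 53, 59 and 61 in controls, or 3.01, 2.32 and 2.71 CPM against 1.71, 1.93 and 1.92 CPM. Its log2 fold change was 0.53 (SE 0.17), and the call ended without knockdown replicate 1 and with DESeq2, where the adjusted p was 0.0512 in both. COL9A3, a cartilage chain, had 18, 23 and 22 counts in knockdown libraries, against 10, 8 and 14 in controls (log2 fold change 0.88, SE 0.35). Its call was lost in 8 of the 15 alternatives that gave a value, among them those without knockdown replicate 2 or 3 and without control replicate 1 or 2. TCFL5, which shares 45 exon bases with COL9A3 on the opposite strand, had 313 to 329 counts in knockdown libraries and 332 to 376 in controls, and its part in the COL9A3 value was not tested.

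COL16A1 was the only chain called lower. It had 8.51, 7.61 and 9.96 CPM in knockdown libraries, against 9.15, 10.1 and 11.1 CPM in controls, with overlapping groups and a log2 fold change of -0.21 (SE 0.09). Its edgeR adjusted p of 0.0461 lay just under the threshold, and the call was lost under 8 of the 16 alternatives. These included leaving out knockdown replicate 1 (adjusted p = 0.127) or 2 (0.286), or control replicate 2 (0.0999) or 3 (0.279), while without knockdown replicate 3 the value was -0.33. COL22A1, which marks tissue junctions, was not called, with 12 to 16 counts in knockdown libraries and 13 to 21 in controls.

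**Figure D3:**
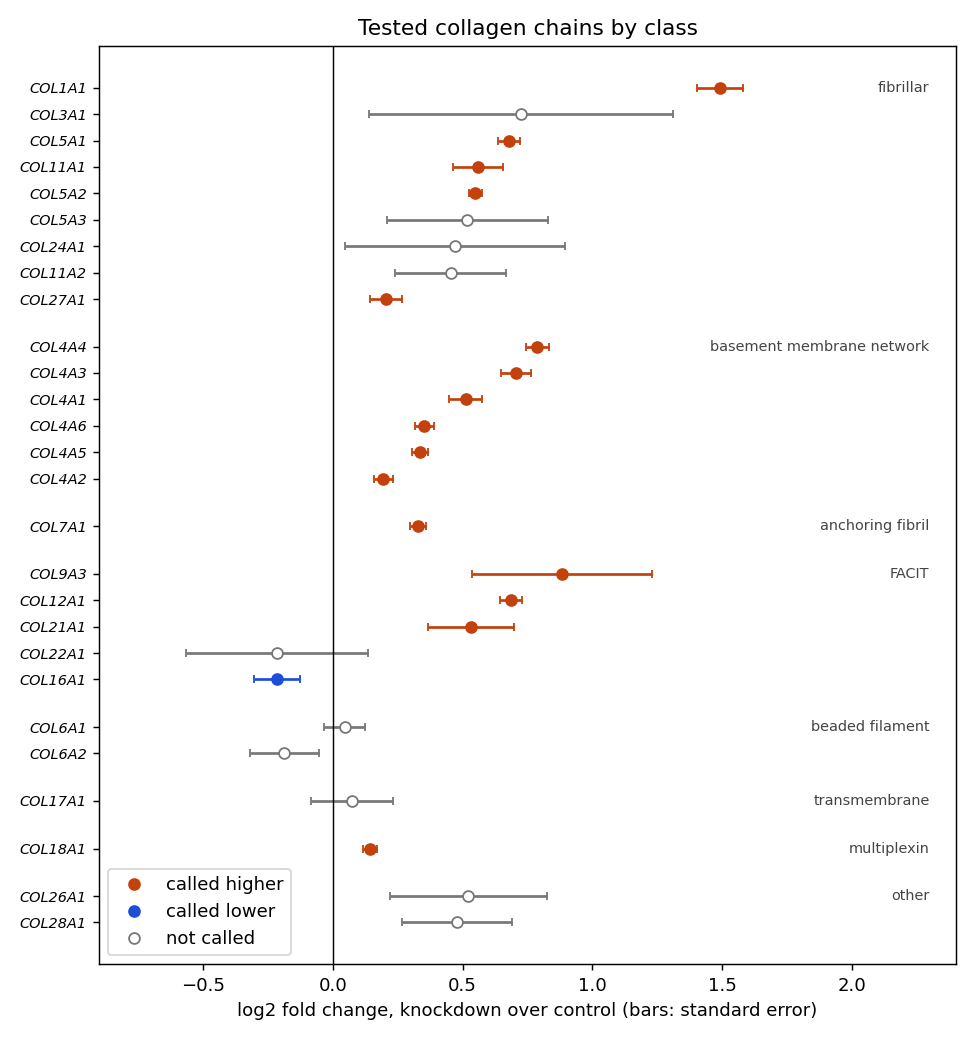
Log2 fold change, knockdown over control, of the 27 tested collagen chains with standard errors, grouped by structural class and coloured by call. The 6 type IV chains lie between 0.20 and 0.79, COL1A1 stands at 1.49, and the beaded filament chains COL6A1 and COL6A2, neither called, lie at 0.05 and -0.19.

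Type VI collagen forms beaded microfibrils around cells, and neither tested chain was called. COL6A1 had 10.8, 9.77 and 10.3 CPM in knockdown libraries, against 9.12, 10.8 and 9.98 CPM in controls, with a log2 fold change of 0.05 (SE 0.08), which was -0.01 without control replicate 1, 0.02 without knockdown replicate 1, 0.08 without knockdown replicate 2 and 0.10 without control replicate 2. COL6A2 had 2.81, 4.14 and 3.57 CPM in knockdown libraries, against 3.80, 3.76 and 4.43 CPM in controls, with a log2 fold change of -0.19 (SE 0.13). That value was -0.06 without knockdown replicate 1, -0.32 without knockdown replicate 2 and -0.11 without control replicate 3. Groups overlapped for both, and the FPKM ratio of COL6A1 to COL6A2 was 2.91 ± 0.70 in knockdown libraries and 2.43 ± 0.31 in controls (SD, n = 3 each, exact permutation p = 0.4, 2-sided). The difference of mean log2 ratios was 0.24, with 0.06 without knockdown replicate 1 and 0.41 without knockdown replicate 2. COL6A3, the large chain that completes type VI molecules, had 4, 0 and 1 counts in knockdown libraries and 3, 1 and 2 in controls. COL17A1, the transmembrane collagen of hemidesmosomes, had 2.69, 2.66 and 2.99 CPM in knockdown libraries, against 2.16, 3.33 and 2.45 CPM in controls, and was not called (0.07, SE 0.16). Its value was -0.05 without control replicate 1, 0.27 without control replicate 2, and 0.02 without knockdown replicate 3 or control replicate 3.

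COL28A1, a chain related to type VI collagen, had 40, 55 and 79 counts in knockdown libraries, against 41, 31 and 45 in controls, or 1.28, 1.72 and 2.19 CPM against 1.32, 1.01 and 1.41 CPM. Its groups overlapped and it was not called (log2 fold change 0.48, SE 0.21), but it passed without knockdown replicate 1 (edgeR adjusted p = 0.0139) and with total-count scaling (0.028), and its value was 0.26 without knockdown replicate 3. COL26A1 had 22 to 27 counts in knockdown libraries and 13 to 21 in controls, with groups apart and no call (0.52, SE 0.30). Altogether the 6 tested members under 1 CPM gave 1 call, that of COL9A3.

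The 9 chains not tested were COL15A1, COL20A1, COL14A1, COL8A2, COL9A2, COL6A3, COL13A1, COL6A6 and COL10A1. No library held more than 13 counts of any of them, and together they had 92 counts in the knockdown group and 62 in the control group. COL14A1 had 19 counts over the knockdown group and 9 over the control group, a ratio of 2.10 per total count (exact 95% interval 0.903 to 5.26, counting error only). COL13A1 had 2 counts over the knockdown group and 6 over the control group, a ratio of 0.331 (0.0327 to 1.85). For none of the 9 did such an interval leave out equality, so a difference was not detectable at this depth. COL10A1 had 1 count over the knockdown group and 0 over the control group, and COL6A6 0 over the knockdown group and 1 over the control group.

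Per length, collagen levels spanned a wide range. In knockdown libraries the order was COL5A2 at 20.9 ± 0.5 FPKM, COL18A1 at 13.4 ± 0.4, COL7A1 at 9.05 ± 0.01, COL4A5 at 7.67 ± 0.37, COL4A6 at 5.79 ± 0.21, COL5A1 at 3.89 ± 0.25, COL4A4 at 3.14 ± 0.13 and COL4A2 at 2.90 ± 0.09 (SD, n = 3). In controls the same leading 5 stood at 13.2 ± 0.2, 11.25 ± 0.07, 6.68 ± 0.32, 5.63 ± 0.17 and 4.20 ± 0.12 FPKM (SD, n = 3). Below them came COL4A2 at 2.35 ± 0.16 and COL5A1 at 2.25 ± 0.09 FPKM, which did not differ beyond their spread in controls, and COL4A4 at 1.69 ± 0.05 FPKM. As shares of all collagen counts, COL5A2 took 19.3% ± 0.2 in knockdown libraries and 17.3% ± 0.2 in controls, and COL18A1 took 14.3% ± 0.1 in knockdown libraries and 17.1% ± 0.1 in controls (SD, n = 3 each).

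Collagen transcripts are long, and calls among long genes were unevenly divided. The median length implied by counts and FPKM was 2.02 times that of all tested genes for the 24 members with a value, and 16 of these lay in the top length quartile of tested genes. In that quartile of 4174 genes, 33.7% were called higher and 17.7% lower, with a median log2 fold change of 0.05. With an offset for length, 15 members were higher and 1 lower, and their median was 0.46. In that fit 3600 of all 17089 tested genes were higher and 3969 lower, with a median of -0.00938. Genes without an implied length were given the median length there. The part of length in the collagen values was not tested.

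Genes that make, bind and degrade collagen were called in both directions. Of 70 listed genes 59 were tested, of which 26 were higher, 9 lower and 24 not called, against 22.2% higher and 22.0% lower among all tested genes. Their median log2 fold change was 0.10. Of 11 genes of TGF-beta signalling, a main inducer of collagen transcription, 7 were higher, 1 lower and 3 not called. The receptor gene TGFBR1 averaged 146 ± 7.9 CPM in knockdown libraries and 84.8 ± 2.9 CPM in controls (log2 fold change 0.78, SE 0.03), and the ligand gene TGFB2 averaged 52.9 ± 1.1 CPM in knockdown libraries and 32.4 ± 1.4 CPM in controls (0.71, SE 0.04, SD over n = 3 each). SMAD3, the transcription factor downstream of these receptors, fell to 145 ± 2.1 CPM in knockdown libraries, against 184 ± 3.2 CPM in controls (-0.34, SE 0.02).

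Chain modification and export genes were examined next. Of 17 tested genes of hydroxylation and folding 7 were higher, 3 lower and 7 not called. Among all tested genes 22.2% were higher and 22.0% lower. P4HA3, a catalytic subunit of the prolyl 4-hydroxylase that stabilises the collagen helix, averaged 60.2 ± 0.9 CPM in knockdown libraries and 34.2 ± 0.7 CPM in controls (log2 fold change 0.81, SE 0.04). P3H2, a prolyl 3-hydroxylase that acts on type IV collagen, rose by 0.46 (SE 0.05), while P3H4, a partner of lysyl hydroxylation, had -0.35 (SE 0.04) and the lysyl hydroxylase gene PLOD1 -0.16 (SE 0.03). On either FPKM scale PLOD1 was not called. Of 7 genes of collagen mRNA binding and secretion 4 were higher, 3 not called and none lower, led by the export receptor gene MIA2 (0.21, SE 0.03) and the coat protein gene SEC24D (0.16, SE 0.05). The SEC24D call was lost with DESeq2, with the length offset and without control replicate 1 or 2 or knockdown replicate 3.

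Outside the cell, opposite changes stood side by side. BMP1, the protease that trims the end of fibrillar procollagens, averaged 89.9 ± 2.1 CPM in knockdown libraries and 69.0 ± 1.2 CPM in controls (log2 fold change 0.38, SE 0.03), while its enhancer gene PCOLCE2 had -0.35 (SE 0.06). The crosslinking enzyme gene LOXL2 fell to 99.5 ± 4.0 CPM in knockdown libraries, against 149.7 ± 1.4 CPM in controls (-0.59, SE 0.03), whereas the related LOXL4 averaged 4.18 ± 0.19 CPM in knockdown libraries and 2.67 ± 0.38 CPM in controls (0.65, SE 0.13). Of 7 tested collagen receptor genes 3 were higher and 2 lower, against 22.2% higher and 22.0% lower among all tested genes. ITGA11, the integrin subunit that binds fibrillar collagen, averaged 9.62 ± 0.88 CPM in knockdown libraries and 3.98 ± 0.35 CPM in controls (1.28, SE 0.10), and ITGA1, which prefers type IV collagen, 11.7 ± 0.5 CPM in knockdown libraries and 6.91 ± 0.49 CPM in controls (0.76, SE 0.08). Their shared partner ITGB1 had -0.26 (SE 0.03) and ITGA2 -0.21 (SE 0.05), the second of which was not called on the FPKM scales. Of 8 tested genes of collagen degradation and its inhibitors 3 were higher and 1 lower, beside the same shares of all tested genes. The gelatinase gene MMP2 averaged 9.05 ± 0.89 CPM in knockdown libraries and 6.15 ± 0.29 CPM in controls (0.56, SE 0.09, SD over n = 3 each). The inhibitor gene TIMP3 had 25 to 33 counts in knockdown libraries and 11 to 20 in controls (0.74, SE 0.29). Its call was lost without knockdown replicate 2 or control replicate 2, with DESeq2, with no filter and on both FPKM scales. TIMP1 had -0.08 (SE 0.03). The TIMP1 call was lost without knockdown replicate 1 or 2 or control replicate 2 or 3. DESeq2, the length offset, no filter and the filter of at least 1 CPM also lost it. The TIMP1 value turned positive with total-count scaling (0.000492) and on both FPKM scales (0.0307 and 0.0311).

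**Figure D4:**
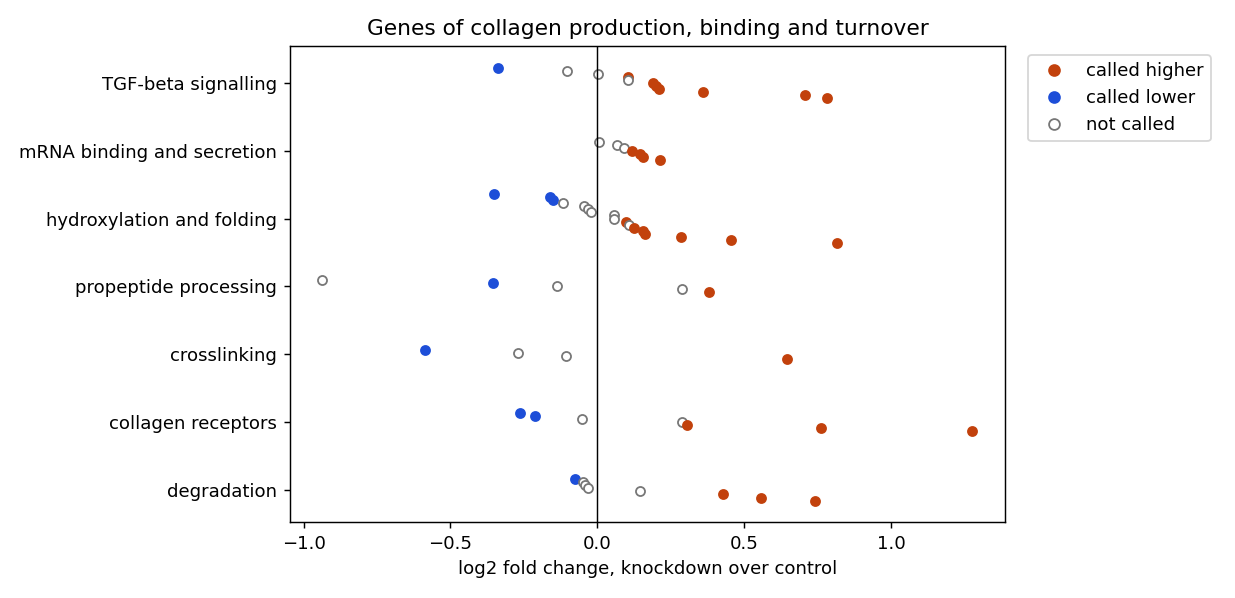
Log2 fold change, knockdown over control, of the 59 tested genes of collagen production, binding and turnover, 1 point per gene, in 7 groups and coloured by call. Receptors and crosslinking enzymes spread to both sides, from -0.59 for LOXL2 to 1.28 for ITGA11, and no gene of mRNA binding and secretion was called lower.

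Markers of matrix-producing cells were examined beside the chains. Of 11 fibroblast and pericyte markers 7 were tested, of which 4 were higher and 3 not called, against 22.2% higher among all tested genes. Their summed level was 95.6 to 98.6 CPM (scaled to total counts) in knockdown libraries and 75.4 to 80.0 in controls, most of it FBLN1 with 65.6 ± 0.2 CPM in knockdown libraries and 57.6 ± 3.0 CPM in controls (SD, n = 3 each). LUM, which encodes a proteoglycan of collagen fibrils, averaged 9.91 ± 0.64 CPM in knockdown libraries and 6.05 ± 0.30 CPM in controls (log2 fold change 0.71, SE 0.09). THY1 averaged 5.15 ± 0.71 CPM in knockdown libraries and 3.64 ± 0.11 CPM in controls (0.50, SE 0.12), and PDGFRA had 45 counts over the knockdown group and 20 over the control group (1.07, SE 0.44). By library PDGFRA had 12, 14 and 19 counts in knockdown libraries and 4, 3 and 13 in controls. Its groups overlapped, and its edgeR adjusted p of 0.0461 lay just under the threshold. TWIST2, RGS5 and MFAP5 were tested and not called. The other 4 had too few counts to test, with DCN at 15 counts over each group, PDGFRB at 12 over the knockdown group and 15 over the control group, POSTN at 6 over the knockdown group and 4 over the control group, and DPT at 2 over the knockdown group and 1 over the control group. Of the endothelial markers CDH5 was higher, with 163 counts over the knockdown group and 75 over the control group (1.03, SE 0.23), PECAM1 was not called, and VWF, KDR and TEK had at most 5 counts over either group. The 3 immune markers tested were not called. The 8 epithelial markers summed to 7769 to 7959 CPM on the same scale in knockdown libraries and 10000 to 10060 in controls. Most of this sum was KRT8, KRT18 and KRT7. Of 7 tested 2 were higher, 4 lower and 1 not called, against 22.2% higher and 22.0% lower among all tested genes. CDH1 (0.50, SE 0.03) and EPCAM (0.22, SE 0.04) were higher. KRT7 (-0.60, SE 0.02), KRT8 (-0.39, SE 0.02), KRT18 (-0.45, SE 0.02) and CLDN4 (-0.86, SE 0.13) were lower. The part of these changes in the collagen values was not tested.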

How the data were processed

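The authors deposited raw read counts per gene, as whole numbers, and FPKM values with 2 decimals, for 6 libraries. Per the labels' protocols, mRNA was captured on beads and directional paired-end libraries were made. The submitters' processing notes name HISAT2, DESeq2 and build GRCh38. The counter, annotation release and strand setting were not given in the sources used here. Total counts per library were 30354219, 31033209 and 35431441 (knockdown) and 31791407, 31458569 and 32832268 (control), and replicate pairs differed by more than sampling noise (chi-square per degree of freedom 1.78 to 2.88).

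Genes were kept by filterByExpr (minimum count 10), scaled with TMM factors and tested across all genes with edgeR 4.0.16 (quasi-likelihood, robust, limma 3.58.1, R 4.3.3) with Benjamini-Hochberg adjustment and a threshold of 0.05. SE is the standard error of a log2 fold change. On simulated counts for 17089 genes 68% of genes with a true log2 change of 0.25 and 90% at 0.5 were recovered, with 5 false calls. The simulation changed 50 genes at each size, all above a minimum mean count, with the same biological spread for every gene. These rates therefore do not carry over to sparse chains or to data with as many calls as these. Alternatives were RLE and total-count scaling, no filter, at least 1 CPM in 3 libraries, DESeq2 1.42.0, limma-trend on log2 FPKM, with a pseudocount of 1 or of 0.1, for genes with at least 0.1 FPKM in 3 libraries, the replicate number as a block, each library left out, and, chosen after seeing the data, loess length offsets (span 0.3) with and without the block. Coordinates came from GENCODE 29 by gene ID without version, which matched all 36 members, and promoter sequences from RefSeq.

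The members and lists were chosen with earlier results of these data known. Tested members with a mean of at least 1 CPM are given per library, other members by counts, and of each pathway group the 2 largest called rises and falls may be named. Marker genes, genes overlapping a member and the examples in other sentences were chosen after their values were seen.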

Additional observations from a re-analysis of the deposited data

How the results depend on the processing

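Across the 16 alternatives 14 to 18 chains were called higher, and 13 of the 16 higher chains were called in every one, the exceptions being COL27A1, COL21A1 and COL9A3. The reported fit had 3801 of 17089 genes higher. Total-count scaling gave the 18 chains, with 5473 of 17089 genes higher. The 14 came with DESeq2 (2883 of 30493 genes fitted) and without knockdown replicate 3 (3475 of 17368). The count of lower chains, 1 in the reported fit, was 0 with total-count scaling, DESeq2 and both FPKM scales, and 0 to 1 when 1 library was left out, each time through COL16A1. Leaving out 1 library gave 14 to 16 higher chains, beside 3386 to 3570 higher genes among all tested. The higher share of all calls was 50.3%. It was 69.5% under total-count scaling and 76.9% or 77.1% on the FPKM scales (pseudocount 1 or 0.1). Lower genes overall numbered 2407 under total-count scaling and 1490 or 1469 on these FPKM scales, against 3759, and lower collagen pathway genes numbered 5 on either FPKM scale, against 9. TMM factors, which total-count scaling leaves out, were 1.021 to 1.031 in knockdown libraries and 0.9708 to 0.9767 in controls. The median log2 fold change of all tested genes was 0.0764 under total-count scaling, against -0.000355 in the reported fit. The cause was not tested. TIMP1 turned to 0.000492 with total-count scaling and to 0.03 on both FPKM scales (0.0307 and 0.0311). The log2 difference in the ratio of COL4A6 to COL4A5 ranged from -0.00984 to 0.0516 with 1 library left out, being -0.00083 without knockdown replicate 1 and -0.00984 without control replicate 3. Total-count and FPKM scales also raised COL18A1, to 0.22 and to 0.23 and 0.25, and log2(FPKM + 1) lowered COL4A1 to 0.29, COL4A3 to 0.47, COL11A1 to 0.26 and COL21A1 to 0.13. The length offset lowered COL18A1 to 0.10. With the replicate number as a block, 3821 genes were higher and 3844 lower, with 16 chains higher and 1 lower. Same-numbered libraries deviated together with correlations of 0.0677, 0.0368 and 0.146, in each case the highest for that knockdown library. Control replicate 2 correlated better with knockdown replicate 1 (0.0457), and the numbers were not taken as pairs in the reported fit. Members with few counts carry standard errors up to 0.59, so moderate changes in them were not detectable at this depth.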
